A study of Mus musculus with 32 samples.

Results

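A set of 10 genes used by cytotoxic T cells and natural killer (NK) cells was followed through the bladders of aging and gavaged mice. The genes were chosen by name, 10 of the 32285 in the deposited count table, and each was found by matching its Ensembl identifier to its symbol. They and the gene lists below were chosen with earlier results of these data known. Shares of them set beside the shares of all genes are therefore a description. Several encode proteins of the cytotoxic granule: the proteases granzyme A (Gzma), granzyme B (Gzmb) and granzyme K (Gzmk), and the pore-forming protein perforin (Prf1). Nkg7 encodes a membrane protein of the same granules. Eomes encodes a T-box transcription factor of NK cells and of a subset of CD8 T cells. Klrk1, Klrd1 and Ncr1 encode the receptors NKG2D, CD94 and NKp46. Ifng encodes the cytokine interferon gamma, which both cell types secrete.

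Cytotoxic lymphocytes kill a target cell by releasing granules at the point of contact: perforin opens the target's membrane and the granzymes enter and cleave proteins within. NK cells do this under the balance of activating and inhibitory surface receptors, while CD8 T cells do it after their T cell receptor has recognized an antigen. Granzyme K is best known from memory CD8 T cells, granzymes A and B from NK and effector cells, and NKp46 is carried mainly by NK cells and related innate lymphoid cells. In tissues, such cells patrol epithelia and clear infected, transformed and senescent cells.

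The levels came from total RNA sequencing of 32 whole bladders of female C57BL/6 mice from the colony of aged animals of the National Institute on Aging, each library made from a single bladder. Young mice were 2 months old (n = 6), middle-aged mice 10 months (n = 5) and old mice 26 months. The old mice were untreated (n = 6) or were gavaged from 21 to 26 months of age, on 3 consecutive days each month, with water (n = 5), with vehicle alone (a mix of the lipid solvent Phosal 50 PG, polyethylene glycol and ethanol, n = 4) or with 5 mg/kg/day of dasatinib and 50 mg/kg/day of quercetin in that vehicle (D+Q, n = 6). Dasatinib is a kinase inhibitor and quercetin a plant flavonoid, and the pair is used as a senolytic, a treatment meant to remove senescent cells. The bladders of one group came from separate mice, and the labels named no batch.

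All 10 genes were low. Over the 32 bladders they drew between 214 counts (Ifng) and 3753 counts (Nkg7) in all, from libraries of 15088372 to 52650259 counts. A bladder with 3 counts or fewer of a gene was taken to be at the floor, which was the case for Gzmk in 6 bladders, Eomes in 1 and Ifng in 9, and for no bladder in the other 7 genes. Levels below are in CPM, the counts of a gene scaled to 1000000 counts a library after normalization by the trimmed mean of M values (TMM). Where genes are compared with each other the levels are in TPM, which are scaled to the same total after division by gene length. Tissue genes of the bladder were abundant in all bladders, with a summed level of 23966 to 32834 CPM for 9 genes. These were smooth muscle and urothelial genes together with Dcn and Pecam1. In whole tissue, a gain or loss of cells of one type cannot be told apart from a change of RNA per cell.

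The upstream sequences of the genes are shown first for those members that hold the letters bound by T-box factors such as Eomes, since Eomes is itself a member. The RefSeq table of gene starts (GRCm38.p6) held 9 of the 10 members, and Klrd1 was not among them. Within 250 bases before the start, the T-box letters AGGTGT, or ACACCT on the other strand, stood in 4 of the 9 member promoters and in 12.0% of 27025 promoters of the same length. In each sequence, read 5′ to 3′ toward the start of the gene, these letters are in capitals.
Gzmk, chr13:113180966-113181215, minus strand: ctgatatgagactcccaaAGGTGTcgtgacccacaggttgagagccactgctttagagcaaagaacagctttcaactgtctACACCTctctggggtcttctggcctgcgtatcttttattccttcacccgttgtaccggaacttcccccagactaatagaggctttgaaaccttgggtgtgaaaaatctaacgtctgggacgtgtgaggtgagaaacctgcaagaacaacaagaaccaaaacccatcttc
Nkg7, chr7:43436888-43437137, plus strand: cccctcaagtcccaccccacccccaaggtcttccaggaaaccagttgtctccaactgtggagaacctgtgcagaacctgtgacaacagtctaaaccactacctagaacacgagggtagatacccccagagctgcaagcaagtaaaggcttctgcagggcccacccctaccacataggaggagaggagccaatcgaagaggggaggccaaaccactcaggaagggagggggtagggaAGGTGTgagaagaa
Prf1, chr10:61297586-61297835, plus strand: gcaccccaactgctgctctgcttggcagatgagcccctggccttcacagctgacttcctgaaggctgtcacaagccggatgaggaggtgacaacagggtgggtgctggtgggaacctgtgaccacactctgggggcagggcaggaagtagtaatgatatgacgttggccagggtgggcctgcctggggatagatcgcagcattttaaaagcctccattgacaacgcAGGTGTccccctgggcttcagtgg
Gzma, chr13:113100982-113101231, minus strand: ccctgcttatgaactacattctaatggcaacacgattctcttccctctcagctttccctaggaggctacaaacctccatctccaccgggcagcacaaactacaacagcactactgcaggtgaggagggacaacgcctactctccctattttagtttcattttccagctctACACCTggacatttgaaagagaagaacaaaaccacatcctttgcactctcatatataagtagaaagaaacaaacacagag

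Gzmk held the letters at 2 places, beginning 232 and 169 bases before its start, Nkg7 at 14, Prf1 at 24 and Gzma at 80 bases before. These RefSeq starts differ from the bounds of the genes as counted. On the minus strand, the counted Gzmk gene reaches upstream to base 113225908, beyond the window shown. The counted Nkg7 gene begins at base 43437073, so its T-box letters lie within that gene. Of 4 other motifs searched on both strands, the RUNX letters TGTGGT were in 6 of the 9 member promoters and 14.2% of all, and the ETS letters GGAAG in 5 and 63.6%. The AP-1 letters TGANTCA were in 1 of 9 and 6.87% of all, and an NF-kB pattern (GGG, any 5 bases, then CC) in 5 of 9 and 45.4%. One stretch can match more than 1 motif, as in the Prf1 promoter, where the NF-kB pattern overlaps the T-box letters. These matches describe letters and not binding.

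**Figure D1:**
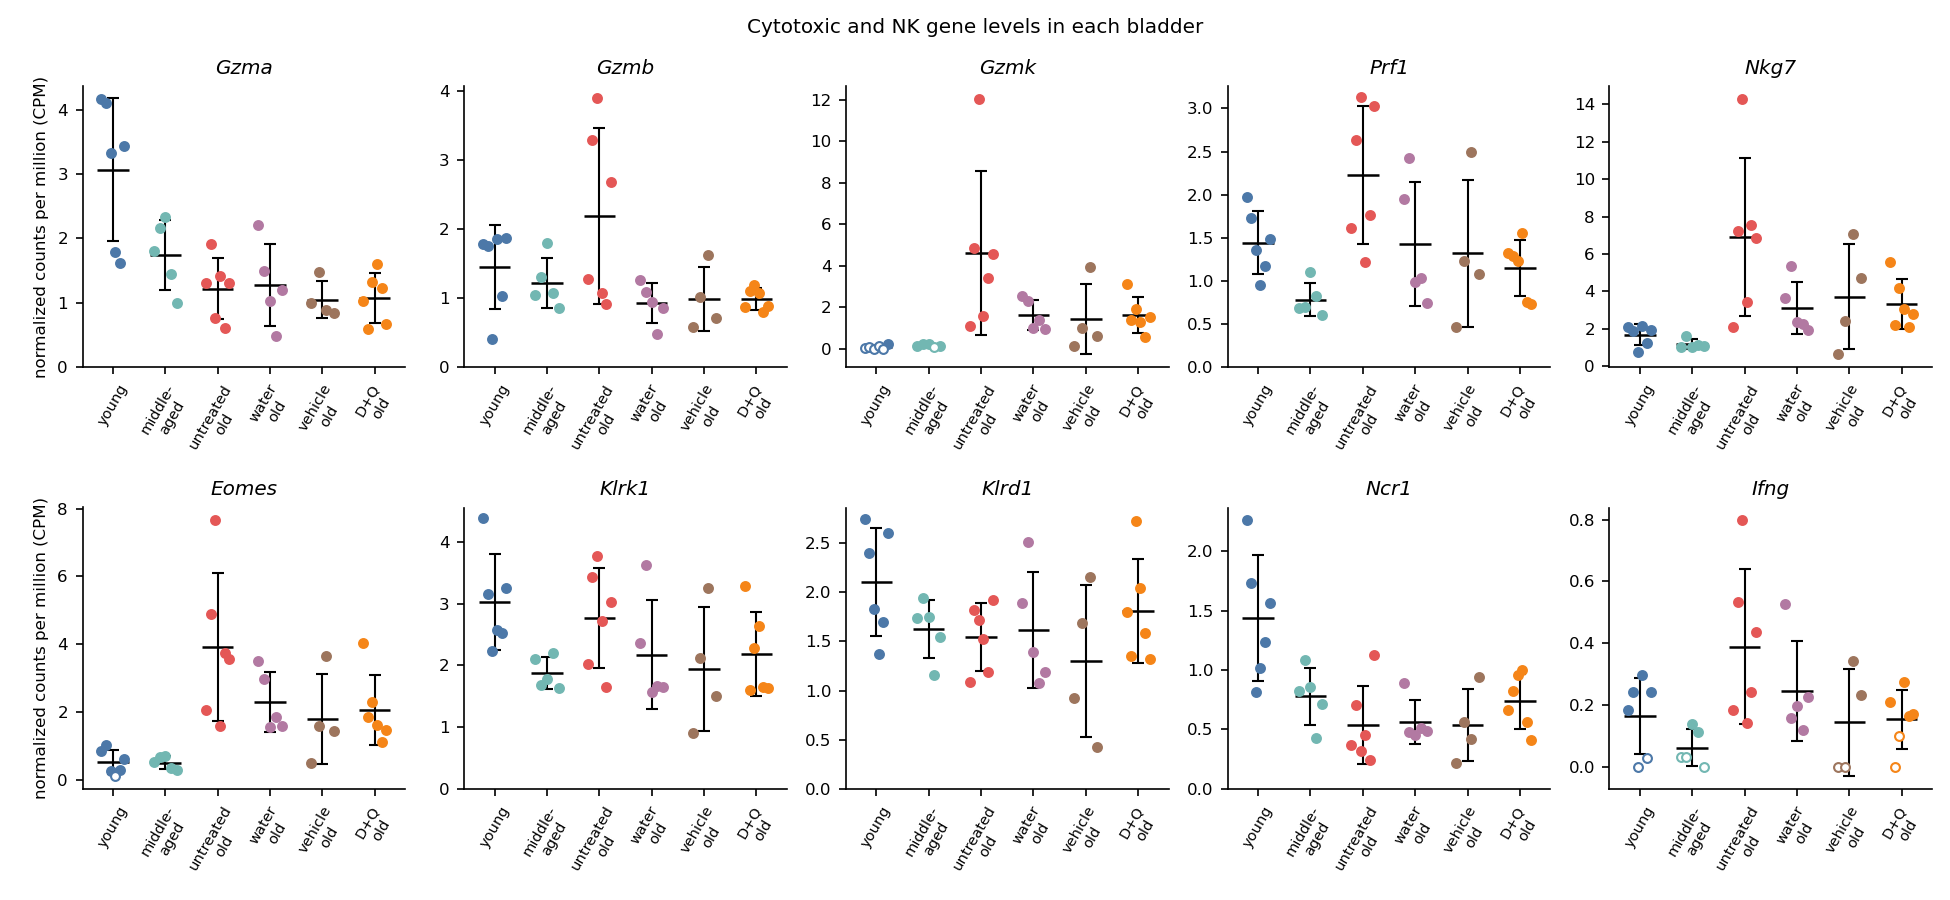
Normalized level (CPM) of each of the 10 genes in each bladder (y axes, linear, each with its own scale) by group (x axes); points are single bladders, open points are bladders with 3 counts or fewer, and bars give the mean and SD. Gzmk, Eomes, Nkg7 and Prf1 sat higher in all 6 untreated old bladders than in all 5 middle-aged ones, while Gzma and Ncr1 had their highest bladders in the young group.

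The first question was how the genes moved over the mouse lifespan. Between 10 and 26 months, Gzmk, Eomes, Nkg7 and Prf1 rose. Of 9 members with enough counts for the test, these 4 passed it, all higher, against 24% of 17156 genes called in this comparison and 13% called higher (edgeR quasi-likelihood test, adjusted p under 0.05). Gzmk, at 3 to 8 counts in each middle-aged bladder, had enough counts through the old bladders alone, so it could be tested only if higher there. With the filter on low counts removed, its log2 fold change was 4.90 (SE 0.64, edgeR adjusted p = 0.00013). The groups did not overlap for 5 of the 10 members, which were Gzmk, Eomes, Nkg7, Prf1 and Ifng, all higher in the untreated old bladders. The background for that was 7.61% of the genes tested. Ifng was not among those, so the members set against it are 4 of 9. Of all genes tested 11% were called lower, and of the members 0.

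Gzmk made the largest of these moves. The 5 middle-aged bladders had 0.131, 0.223, 0.221, 0.0848 and 0.110 CPM, which stood for 3 to 8 counts each. In the 6 untreated old bladders the lowest level was 1.11, the median 3.98 and the highest 12.1 CPM. Even the lowest untreated old bladder was thus above every middle-aged one, although the old bladders themselves were widely spread. The log2 fold change was 4.89 (SE 0.68, edgeR adjusted p = 0.00028). Without the highest bladder, untreated old replicate 3, it was 4.34. Gzmk spans the gene Esm1 on the other strand, but they share no exon bases.

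Eomes followed. Its levels in the middle-aged bladders were 0.524, 0.668, 0.720, 0.339 and 0.303 CPM, and in the untreated old bladders 1.58 at the lowest, 3.66 at the median and 7.66 CPM at the highest. Again no old bladder reached down to the middle-aged range, and the log2 fold change was 2.96 (SE 0.42, edgeR adjusted p = 0.00029). The antisense transcript Gm33460 shares 118 exon bases with Eomes, and since the strand setting of the counting was not given, reads there could not be assigned with certainty; Gm33460 itself had at most 0.196 CPM in an untreated old bladder.

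Nkg7 had 1.05, 1.62, 1.05, 1.13 and 1.10 CPM in the middle-aged bladders, and 2.11, 7.03 and 14.3 CPM as the lowest, median and highest untreated old levels. Its log2 fold change was 2.56 (SE 0.41, edgeR adjusted p = 0.00075). For Prf1, the middle-aged bladders had 0.688, 0.700, 1.11, 0.820 and 0.607 CPM and the untreated old bladders 1.22, 2.20 and 3.13 CPM at the lowest, median and highest, a log2 fold change of 1.53 (SE 0.27, edgeR adjusted p = 0.0013). Both genes were apart in the 2 groups, Prf1 by a narrow gap.

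The other granzymes did not pass the test. Gzmb had a mean of 2.19 ± 1.27 CPM (SD, n = 6) in the untreated old and 1.22 ± 0.363 CPM (SD, n = 5) in the middle-aged bladders, with 3 of the old bladders above the whole middle-aged group and the others within it (log2 fold change 0.87, SE 0.38, edgeR adjusted p = 0.12). Gzma had 1.22 ± 0.471 CPM (SD, n = 6) against 1.74 ± 0.541 CPM (SD, n = 5), a log2 fold change of -0.49 (SE 0.29, edgeR adjusted p = 0.24).

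Nor did the receptors pass. Klrk1, the activating receptor that reads stress-induced ligands, had 2.76 ± 0.814 CPM (SD, n = 6) in the untreated old and 1.88 ± 0.258 CPM (SD, n = 5) in the middle-aged bladders, a log2 fold change of 0.58 (SE 0.20, edgeR adjusted p = 0.052). It passed once untreated old replicate 1 or replicate 5 was left out (adjusted p = 0.035 and 0.010), with DESeq2 (adjusted p = 0.027) and with genes of under 10 counts in any bladder left out (adjusted p = 0.047). Klrd1, the partner chain of the NKG2 receptors, differed by -0.04 (SE 0.18, edgeR adjusted p = 0.89) and Ncr1 by -0.47 (SE 0.37, edgeR adjusted p = 0.40) on the log2 scale. For both, the ranges of the 2 groups overlapped.

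Ifng was too low for the filter on counts. It had 5 to 25 counts in the untreated old bladders, with 0.141, 0.340 and 0.798 CPM as lowest, median and highest level, and 0 to 5 counts in the middle-aged bladders, of which 3 were at the floor and the highest had 0.138 CPM. The groups did not overlap, although their nearest bladders were almost equal. With the filter on low counts removed, the log2 fold change of Ifng was 2.55 (SE 0.62, edgeR adjusted p = 0.011).

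**Figure D2:**
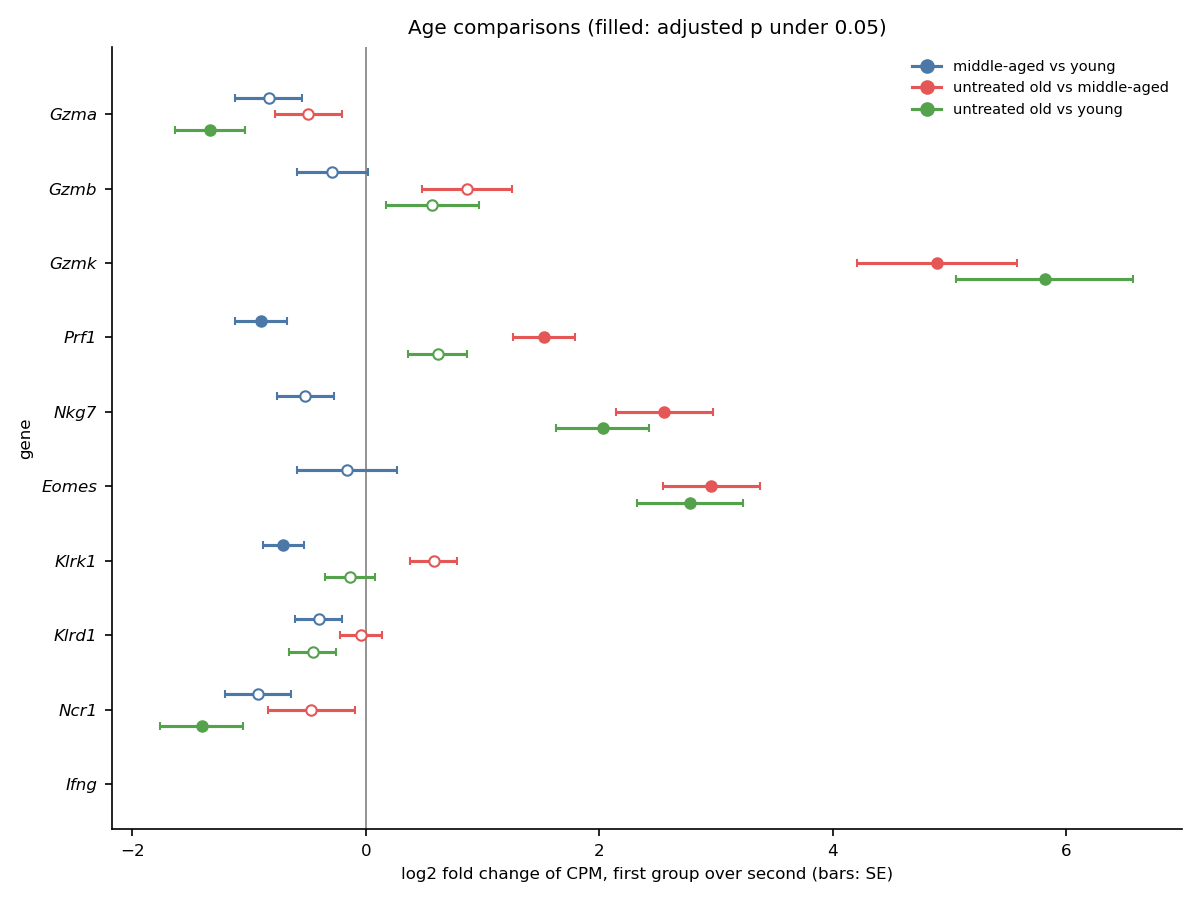
Log2 fold change of each gene (x axis, first named group over second; points are estimates, bars the SE) in the 3 age comparisons; filled points had an edgeR adjusted p under 0.05, and genes with too few counts have no point. Gzmk, Eomes and Nkg7 lie far to the right in both comparisons with untreated old bladders, while Gzma and Ncr1 lie to the left of 0 in all 3.

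Between 2 and 10 months, Prf1 and Klrk1 fell. Of 8 members tested, 2 were called, both lower in the middle-aged bladders, against 10.8% of 16754 genes called, 5.85% lower and 4.96% higher. Prf1 fell by 0.90 on the log2 scale (SE 0.22, edgeR adjusted p = 0.023) and Klrk1 fell by 0.71 (SE 0.18, edgeR adjusted p = 0.024). The other 6 tested members were also estimated lower, from -0.92 for Ncr1 (adjusted p = 0.051) and -0.83 for Gzma (adjusted p = 0.080) to -0.16 for Eomes (adjusted p = 0.85). Over all genes tested, 49.3% had a fold change below 0.

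Klrk1 was the member whose groups did not overlap here, at a background of 2.73% of genes lower without overlap. It had 2.24, 2.86 and 4.38 CPM as the lowest, median and highest young level, and 2.10, 1.69, 1.77, 2.21 and 1.63 CPM in the middle-aged bladders. Prf1 had 0.956, 1.42 and 1.97 CPM in the young bladders, so that the highest middle-aged bladder, at 1.11 CPM, lay within the young range. Gzmk and Ifng were not tested in this pair: Gzmk had 12 counts over the 6 young bladders and 26 over the 5 middle-aged ones, and Ifng 26 and 11.

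These 2 calls depended on single bladders and on the fit. Neither held without young replicate 6, middle-aged replicate 2 or middle-aged replicate 6, and none held in a fit of all 6 groups together, whereas 4 members (Gzma and Ncr1 in addition) were called by DESeq2, without young replicate 4, without young replicate 5, and without both young libraries of under 20000000 counts, the last a choice made after seeing the data. DESeq2 called 14.3% of 18759 genes here. With young replicate 1, young replicate 2, middle-aged replicate 1 or middle-aged replicate 4 left out, 1 of the 2 calls remained. Ncr1 was called with RLE factors (adjusted p = 0.049), with genes of under 10 counts in any bladder left out (adjusted p = 0.043) and without young replicate 3 (adjusted p = 0.031). Of 13 T cell markers tested in this pair 0 were called (median log2 fold change -0.04), while 4 of 6 B and plasma cell markers were higher and 3 of 5 mast cell markers lower. The mast cell proteases Cma1 and Tpsb2 fell by 1.30 (SE 0.15) and 1.06 (SE 0.19) and Cpa3 fell by 1.42 (SE 0.28) on the log2 scale. Of the 5 mast cell markers tested, 4 were estimated lower and 1 higher. The summed level of all 6 listed mast cell markers did not fall. Its median was 53.56 CPM in the young and 58.98 CPM in the middle-aged bladders, and the ranges overlapped. The part of these marker lists in the members' values was not tested.

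Set against the young bladders, the untreated old bladders held both directions. Of 9 members tested, 3 were called higher and 2 lower, where 25.1% of 16873 genes were called, 12.6% higher and 12.4% lower. Gzmk rose by a log2 fold change of 5.81 (SE 0.76, edgeR adjusted p = 0.00012), a value that rests on 12 counts over the 6 young bladders, 5 of them at the floor, and that was 6.47 without young replicate 6. Here too Gzmk had enough counts for the test through the old bladders alone. With the filter on low counts removed, its log2 fold change was 5.82 (SE 0.73, edgeR adjusted p = 7.1e-05). Eomes rose by 2.78 (SE 0.46, edgeR adjusted p = 0.00062) and Nkg7 by 2.03 (SE 0.40, edgeR adjusted p = 0.0022). Gzmk and Eomes were the 2 members higher without overlap, at a background of 6.61%.

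Gzma and Ncr1 fell over the whole lifespan. Gzma had 1.61, 3.38 and 4.16 CPM as its lowest, median and highest young level and 0.606, 1.31 and 1.91 CPM in the untreated old bladders, and it fell by 1.33 on the log2 scale (SE 0.30, edgeR adjusted p = 0.0056). Ncr1 had 0.813, 1.40 and 2.27 CPM in the young and 0.242, 0.412 and 1.12 CPM in the untreated old bladders, and it fell by 1.41 (SE 0.35, edgeR adjusted p = 0.010). In both genes the groups overlapped at 1 or more bladders. With genes of under 10 counts in any bladder left out, 3 members were called, since Gzmk and Eomes were no longer tested.

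The remaining members did not differ from young by this test. Prf1, lower in middle age and higher in old age, was 0.61 above young (SE 0.25, edgeR adjusted p = 0.091) and was called only without untreated old replicate 4 (adjusted p = 0.034). Klrd1 was at -0.46 (SE 0.20, edgeR adjusted p = 0.11), and was called without young replicate 4 (adjusted p = 0.049). Gzmb was at 0.57 (SE 0.40, edgeR adjusted p = 0.34) and Klrk1 at -0.14 (SE 0.21, edgeR adjusted p = 0.70).

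Per unit length, the order of the genes was unlike in the 2 ages. In the young bladders Gzma was the most abundant member at 10.7 ± 3.86 TPM (SD, n = 6), ahead of Nkg7 at 6.45 ± 2.14 and Klrd1 at 5.78 ± 1.51 TPM, neighbors whose ranges overlapped, with Gzmk last at 0.192 ± 0.204 TPM. In the untreated old bladders Nkg7 came first at 26.1 ± 16.4 TPM (SD, n = 6) and Gzmk second at 11.4 ± 10.1 TPM, and their ranges overlapped too. Gzmb, Gzma, Klrd1, Eomes and Prf1 then lay between 5.26 and 2.97 TPM, and Klrk1, Ncr1 and Ifng between 1.33 and 1.04 TPM.

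The change of granzymes showed best as the share of each in the summed TPM of Gzma, Gzmb and Gzmk. Gzmk made up 0% to 3.08% of that sum in the young bladders (median 0.858%) and 2.72% to 4.98% in the middle-aged ones (median 4.28%). In the untreated old bladders it made up 26.9% to 71.4% (median 48.2%), which overlapped neither younger group. The Gzma share had medians of 73.0%, 63.9% and 22.5% and the Gzmb share 24.9%, 33.4% and 25.8%. The 3 shares add up to the whole, so a larger share of Gzmk leaves less for the other two whatever their own levels did. The gavaged old groups lay between, with median Gzmk shares of 37.2% (water), 25% (vehicle) and 40.6% (D+Q).

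**Figure D3:**
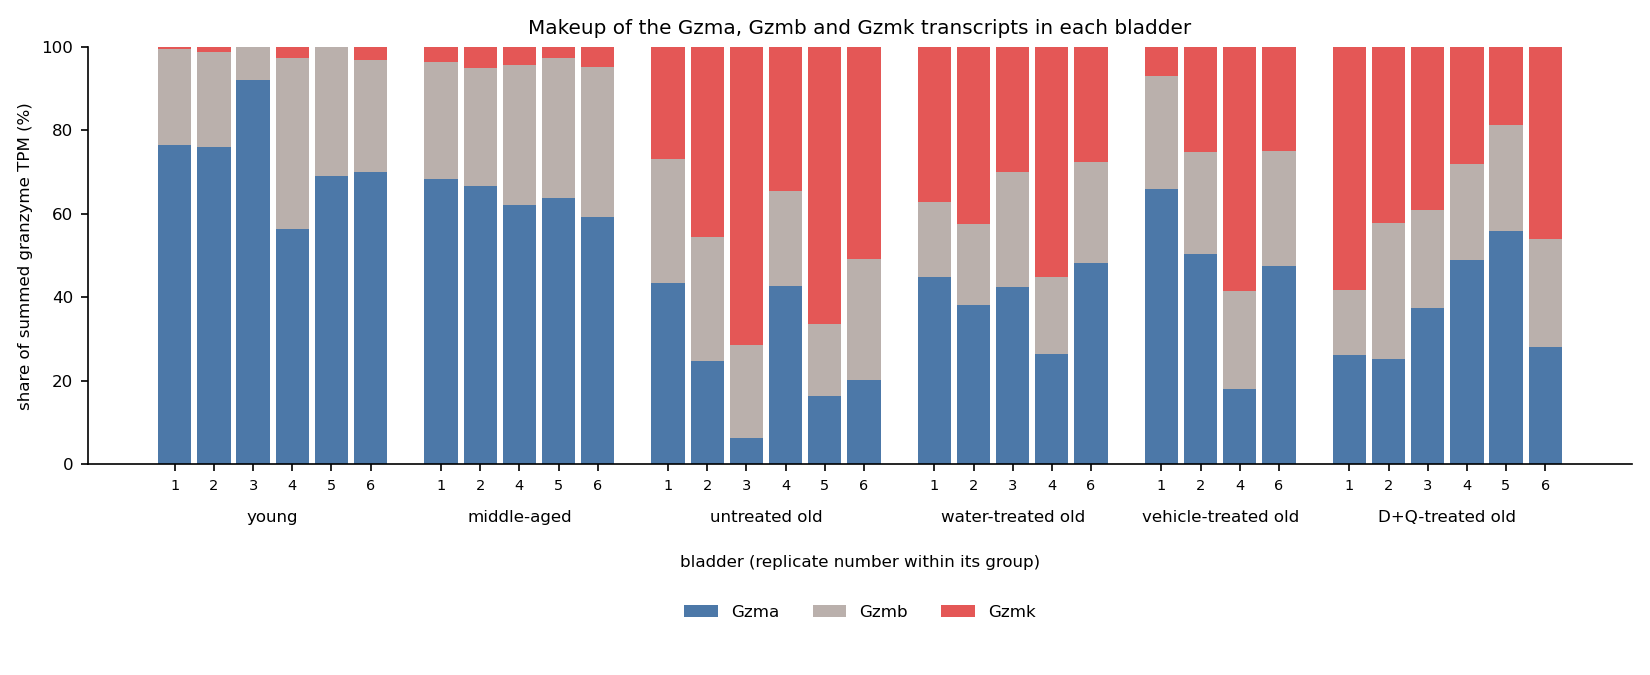
Share of Gzma, Gzmb and Gzmk in their summed TPM (y axis, percent, from 0 to 100) in each of the 32 bladders (x axis, bars grouped by treatment and age, numbered by replicate). Gzmk is a thin band of under 5% in every young and middle-aged bladder and 6.99% to 71.4% of the sum in the old ones, the lowest being vehicle-treated replicate 1.

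The wider program of cytotoxic cells was followed over the same ages. Of 67 other genes of this program, 55 were tested between middle-aged and untreated old bladders and 35 were called, all higher, where 24% of all genes were called and 13% called higher, with a median log2 fold change of 0.67 over those tested and -0.005 over all genes. Cst7, at a median of 0.194 CPM in the middle-aged bladders, had enough counts through the old bladders alone. It could thus be tested only if higher there. Other genes of low count in this and the marker lists may share that limit, and their number was not counted. From young to untreated old, 27 were called higher and 2 lower of 54 tested, against 12.6% and 12.4% of all genes (median 0.36, all genes -0.002). From young to middle-aged, 1 was called higher and 3 lower of 49 tested (median -0.16, all genes 0.003). With 4.96% and 5.85% of all genes called higher and lower, the 4 calls of 49 were near the background. The 3 lower ones were the NK receptor genes Klra8, Klrb1f and Klre1, and the higher one was the homing receptor Cxcr6; the 2 lower ones from young to untreated old were Zeb2 and Itga1, and these names were picked after their values were seen. Klra8 belongs to a family of near-identical genes and is uncertain for that reason.

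By role, all 5 of the cytokine receptors tested were higher in the untreated old than in the middle-aged bladders. Among them were Il2rb, the receptor chain shared by interleukins 2 and 15 (log2 fold change 1.56, SE 0.20), Il12rb1, a chain of the interleukin 12 receptor (1.43, SE 0.15), and Il18rap, part of the interleukin 18 receptor (0.95, SE 0.19). All 5 receptor adaptors were higher too: Sh2d1a, the adaptor SAP (3.39, SE 0.42), Hcst, the adaptor DAP10 that NKG2D signals through (1.51, SE 0.19), Sh2d1b1 (1.05, SE 0.31), Fcer1g (0.63, SE 0.18) and Tyrobp, the adaptor DAP12 (0.53, SE 0.12). Tyrobp and Fcer1g are also used by macrophages.

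Of 10 genes of granule processing and release, 6 were higher, led by Cst7, an inhibitor of granule cathepsins (3.25, SE 0.53), Ctsw, a cathepsin of cytotoxic cells (1.98, SE 0.26), and Srgn, the proteoglycan that packs granzymes (1.05, SE 0.10). Both death ligands rose, Fasl by 2.01 (SE 0.50) and Tnfsf10 by 0.36 (SE 0.09). Of 7 other granzyme genes, Gzmm alone was tested, at -0.15 (SE 0.14, edgeR adjusted p = 0.48), and Gzmc, Gzmd, Gzme, Gzmf, Gzmg and Gzmn had too few counts.

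Of 11 homing receptors and chemokines, 7 were higher. Ccl5, a chemokine stored by cytotoxic cells, rose from 2.65 to 20.1 CPM in the mean (log2 fold change 2.94, SE 0.47), Ccl4 by 2.31 (SE 0.63) and Cxcr3, a receptor for interferon-induced chemokines, by 2.01 (SE 0.20). Of 5 transcription factors tested, 4 were higher, with Runx3 at 1.85 (SE 0.17), Stat4 at 1.52 (SE 0.23) and Prdm1 at 0.74 (SE 0.17). Tbx21, the other T-box factor of these cells, made the fourth, at 0.60 (SE 0.12).

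The receptors came out mixed. Of 16 lectin-like and other NK receptors tested, 6 were higher, with Crtam (1.55, SE 0.32), Cd160 (1.43, SE 0.29) and Klrc1, the NKG2A chain that pairs with CD94 (1.22, SE 0.28), in the lead. All 3 are also carried by activated T cells. Klrb1c, which carries the NK1.1 epitope that marks NK cells in this strain, was at -0.38 (SE 0.38, edgeR adjusted p = 0.52), and Itga2, the integrin chain of the DX5 marker, at -0.01 (SE 0.07, edgeR adjusted p = 0.92). Itga2 stood at 25.2 ± 2.17 CPM (SD, n = 6) in the untreated old and 25.8 ± 2.52 CPM (SD, n = 5) in the middle-aged bladders, far above Klrb1c and Ncr1.

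Markers of other lymphocytes moved with these genes. Of 14 T cell markers, 13 were higher in the untreated old than in the middle-aged bladders (median log2 fold change 2.52), with Cd8a at 3.43 (SE 0.40), Cd8b1 at 3.42 (SE 0.35) and Cd5 at 3.21 (SE 0.33). The exception was Trdc, the constant region of the gamma delta T cell receptor, at 0.17 (SE 0.30, edgeR adjusted p = 0.72). Summed over the 14 markers, the middle-aged bladders had 19.4 to 26.3 CPM and the untreated old ones 71.4 to 160.0 CPM, with none at 0 in every bladder of a group. Against young bladders, 14 of 14 were higher. Their part in the rise of the members was not tested.

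B and plasma cell markers, which mark cells without a granule program, rose in 6 of 6 genes. Their summed level was 6.07 to 35.5 CPM in middle age and 177.7 to 876.6 CPM in untreated old age, and the leading genes were Ms4a1 (5.00, SE 0.42), Mzb1 (4.56, SE 0.56) and Cd79a (4.49, SE 0.40). Of 6 macrophage markers, 5 rose, by less, with C1qa at 0.83 (SE 0.15), Lyz2 at 0.72 (SE 0.10) and Cd68 at 0.72 (SE 0.09). None of 5 mast cell markers tested was called and no neutrophil marker had enough counts. The part of these lists in the changes of the members was not tested either.

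The genes on either side of interferon gamma were read next. Of 14 genes of its receptor and response, 11 were higher in the untreated old than in the middle-aged bladders, with a median log2 fold change of 0.80. Cxcl9, a chemokine induced by interferon gamma, rose from 0.481 to 11.8 CPM in the mean (log2 fold change 4.62, SE 0.62), Gbp2b by 2.16 (SE 0.37) and Cxcl10 by 2.04 (SE 0.37). In the young bladders Cxcl9 had a mean of 2.38 CPM and a highest level of 4.52 CPM. The lowest untreated old bladder had 4.36 CPM, so those groups overlapped. Among 5 cytokine genes that induce Ifng, Il12b rose by 2.56 (SE 0.56) and Il18 by 0.46 (SE 0.08), Il15 was at 0.16 (SE 0.09, edgeR adjusted p = 0.21), and Il12a and Il27 had too few counts.

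Of the ligands of NKG2D, 5 were matched to the count table. Ulbp1 rose by 0.75 (SE 0.12, edgeR adjusted p = 0.00072). H60c at 0.41, Raet1d at 0.22, H60b at -0.08 and Raet1e at -0.10 did not pass, with SEs of 0.09 to 0.31. Some of these genes, those of the Raet1 family among them, come in near-identical copies, so that the counts of such genes are uncertain.

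The second question was whether old bladders differed after gavage with water, vehicle or D+Q. None of the members passed the test in any of these comparisons. Gzmk, Eomes, Nkg7 and Prf1, called higher by 26 months, were estimated lower in all 3 gavaged groups than in the untreated old mice. So were Gzmb and Klrk1, which had not been called. The 3 comparisons share the untreated old bladders as their reference, so a high value there enters each of them. The rise by 26 months was called on these same bladders, so genes picked as high in them would tend to be lower in any other old group.

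With D+Q, 0 of 9 members were called by edgeR, and 0% of 17037 genes. An unadjusted p under 0.05 was reached by 5 of the 9 members, all lower, where 12.9% of all genes reached it. Gzmk had 0.562, 1.45 and 3.13 CPM as the lowest, median and highest D+Q level, against a median of 3.98 CPM in the untreated old bladders, a log2 fold change of -1.49 (SE 0.52, edgeR adjusted p = 0.32). Gzmb was at -1.14 (SE 0.34, edgeR adjusted p = 0.28) and Nkg7 at -1.06 (SE 0.39, edgeR adjusted p = 0.33). Prf1 was at -0.96 (SE 0.26, edgeR adjusted p = 0.26) and Eomes at -0.92 (SE 0.38, edgeR adjusted p = 0.35). The ranges of the 2 groups overlapped for all 10 members, where 0.358% of all genes were lower without overlap. DESeq2 called 1.19% of 15888 genes and 2 members lower, Prf1 (adjusted p = 0.030) and Gzmb (adjusted p = 0.0496).

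Klrk1 was at -0.34 (SE 0.23, edgeR adjusted p = 0.53), Klrd1 at 0.22 (SE 0.20, edgeR adjusted p = 0.64), Ncr1 at 0.40 (SE 0.35, edgeR adjusted p = 0.63) and Gzma at -0.19 (SE 0.29, edgeR adjusted p = 0.80). Ifng had 0 to 10 counts in the D+Q-treated bladders, 2 of them at the floor, and was not tested. The T cell markers were estimated lower in the same comparison in 13 of 14 genes (median -0.68), where 49.3% of all genes were, with none called, and summed to 43.7 to 85.9 CPM. They were also estimated lower in 13 of 14 genes after water (median -0.55) and 12 of 14 after vehicle (median -0.61), where 49.8% and 49.4% of all genes were. Their part in the members' values was not tested.

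With water, 0 of 9 members were called, and 1% of 17250 genes. The 5 bladders had 2.52, 2.30, 0.993, 1.40 and 0.938 CPM of Gzmk, a log2 fold change of -1.52 (SE 0.55, edgeR adjusted p = 0.21) from untreated old. Gzmb was at -1.28 (SE 0.41, edgeR adjusted p = 0.17), Nkg7 at -1.17 (SE 0.44, edgeR adjusted p = 0.22), Eomes at -0.80 (SE 0.38, edgeR adjusted p = 0.33) and Prf1 at -0.67 (SE 0.34, edgeR adjusted p = 0.36). An unadjusted p under 0.05 was reached by 3 members, where 16% of all genes reached it. DESeq2 called 4.67% of 14844 genes and 1 member, Gzmb (adjusted p = 0.034). Gzma, Klrd1 and Ncr1 differed by 0.01, 0.04 and -0.02. The other program genes had 0 calls by edgeR in each comparison of the gavaged with the untreated mice, and 3 by DESeq2 after D+Q and after water.

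With vehicle, 0 of 10 members were called, and 0% of 17440 genes. This was the smallest and most uneven group: replicate 1 had the lowest level of Gzmk, Nkg7, Eomes, Prf1 and Klrk1 of the 4 bladders and replicate 4 the highest. For Gzmk the 4 levels were 0.146, 1.02, 3.92 and 0.611 CPM, a log2 fold change of -1.67 (SE 0.83, edgeR adjusted p = 0.61), which ran from -2.97 to -1.11 as single bladders were left out. Ptprc, the pan-leukocyte gene CD45, ran from 31.3 to 121.1 CPM in the same bladders. Gzmb at -1.15 was the 1 member with an unadjusted p under 0.05, which 8.39% of all genes reached, and neither DESeq2 nor limma called a member.

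**Figure D4:**
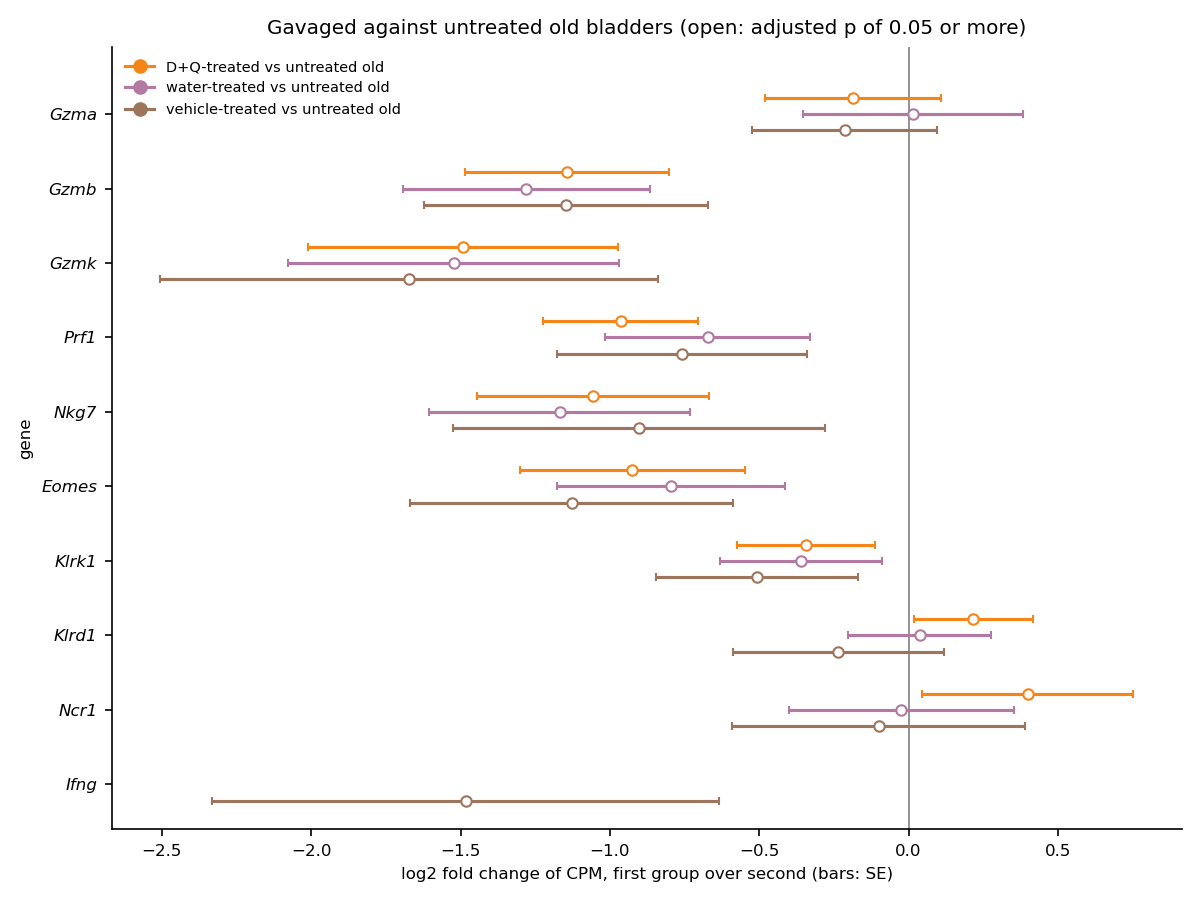
Log2 fold change of each gene (x axis, gavaged group over untreated old bladders; points are estimates, bars the SE) after D+Q, water or vehicle; open points had an edgeR adjusted p of 0.05 or more, which was the case for all, and Ifng had enough counts in the vehicle comparison alone. Gzmb, Gzmk, Prf1, Nkg7 and Eomes lie between -1.67 and -0.67 in each of the 3 comparisons, which share the untreated old bladders.

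Set against the groups that were gavaged alike, the D+Q-treated bladders showed no called member. Against vehicle, 0 of 9 members and 0% of 17267 genes were called, and 0 members reached an unadjusted p under 0.05, which 4.18% of genes did. The estimates ran from -0.20 (Prf1, SE 0.39) to 0.52 (Ncr1, SE 0.39), with Gzmk at 0.18 (SE 0.68) and Eomes at 0.20 (SE 0.48). Against water, 0 of 9 members and 0% of 17161 genes were called, again with 0 members under an unadjusted p of 0.05, against 7.82% of genes. Estimates ran from -0.29 (Prf1, SE 0.32) to 0.43 (Ncr1, SE 0.27), with Gzmk at 0.03 (SE 0.38). DESeq2 called none of the members in either comparison. For Gzmk, 2 SEs on either side of the estimate reached from -1.18 to 1.53 against vehicle and from -0.73 to 0.79 against water.

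The levels of the gavaged groups still stood above middle age for 3 genes. Gzmk, Nkg7 and Eomes were higher without overlap in all 5 water-treated and all 6 D+Q-treated bladders than in the 5 middle-aged ones, where 6.12% and 4.94% of genes were. In the vehicle group 0 members were free of overlap (background 4.27%). Its replicate 1 lay within the middle-aged range for Gzmk and Eomes and, at 0.634 CPM, below it for Nkg7, while the other 3 bladders were above it for all 3 genes. For Gzmk the mean levels thus ran from 4.60 ± 3.96 CPM (SD, n = 6) in untreated old to 1.63 ± 0.738 (water, n = 5), 1.63 ± 0.856 (D+Q, n = 6) and 1.42 ± 1.70 CPM (vehicle, n = 4), neighbors whose ranges overlapped, then to 0.154 ± 0.0642 (middle-aged, n = 5) and 0.0759 ± 0.0808 CPM (young, n = 6).

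Among the 21 old bladders, the members also varied together within their groups. As a description across bladders, with each group's mean removed, the 45 pairs of members had a median Pearson r of 0.60 for log2(CPM + 0.5). The 6 pairs among Gzmk, Nkg7, Eomes and Prf1 ran from 0.79 to 0.95, and the 8 pairs of these 4 with Gzma or Ncr1 from -0.05 to 0.44. The r of Ncr1 depended on few bladders. Without the 2 bladders farthest from the other gene's median, it was 0.43 instead of 0.16 with Gzmk and 0.44 instead of 0.22 with Eomes. With Nkg7 it was 0.03 instead of 0.27, and with Prf1 0.46 instead of 0.44. Klrk1 had 0.74 to 0.84 and Gzmb 0.60 to 0.75 with the same 4 genes, and the pair of Klrk1 with Prf1 lay within the range of the 4. Gzma and Ncr1 had an r of 0.47 with each other. The bladders share no library, but the low counts of Ifng and Ncr1 limit how high an r can be.

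Of 17195 genes with enough counts, the gene most like Gzmk was Eomes (r = 0.95, Spearman rho 0.96, and r = 0.93 without the 2 bladders farthest from the median), followed by Ccl5 (0.91) and Cd6 (0.89). Eomes in turn was most like Gzmk, then Ccl5 (0.92) and Ms4a4b (0.92). For Nkg7 the list was Ccl5 (0.94), Ms4a4b (0.93) and Cd3d (0.91), and for Prf1 Rinl (0.95), Trbc2 (0.94) and Spn (0.94). Trbc2 has a near-identical copy in Trbc1 and is uncertain. Klrk1 was most like Slfn1 (0.93), Cd5 (0.90) and Cd6 (0.90), and Cd3d, Trbc2 and Cd5 are T cell markers of the list above.

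Gzmb was most like Ccl4 (0.82), Scly (0.81) and Pdcd1 (0.80). The lists of the others held weaker likeness. How high the top r among 17195 genes over 21 bladders runs by chance was not tested. Klrd1 was nearest to I830077J02Rik, Pced1a and Slc35c2 (each 0.81), Ncr1 to Igkv5-45 (0.81), Klra7 (0.76) and Csn3 (0.75), and Gzma to Cdk5r1 (0.73), 4930581F22Rik (0.71) and Rapgef4 (0.71). The r of Ncr1 with Igkv5-45, an immunoglobulin segment, was 0.64 without the 2 farthest bladders, and both it and Klra7 belong to families of near-identical genes. Ifng had too few counts to be ranked.

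**Figure D5:**
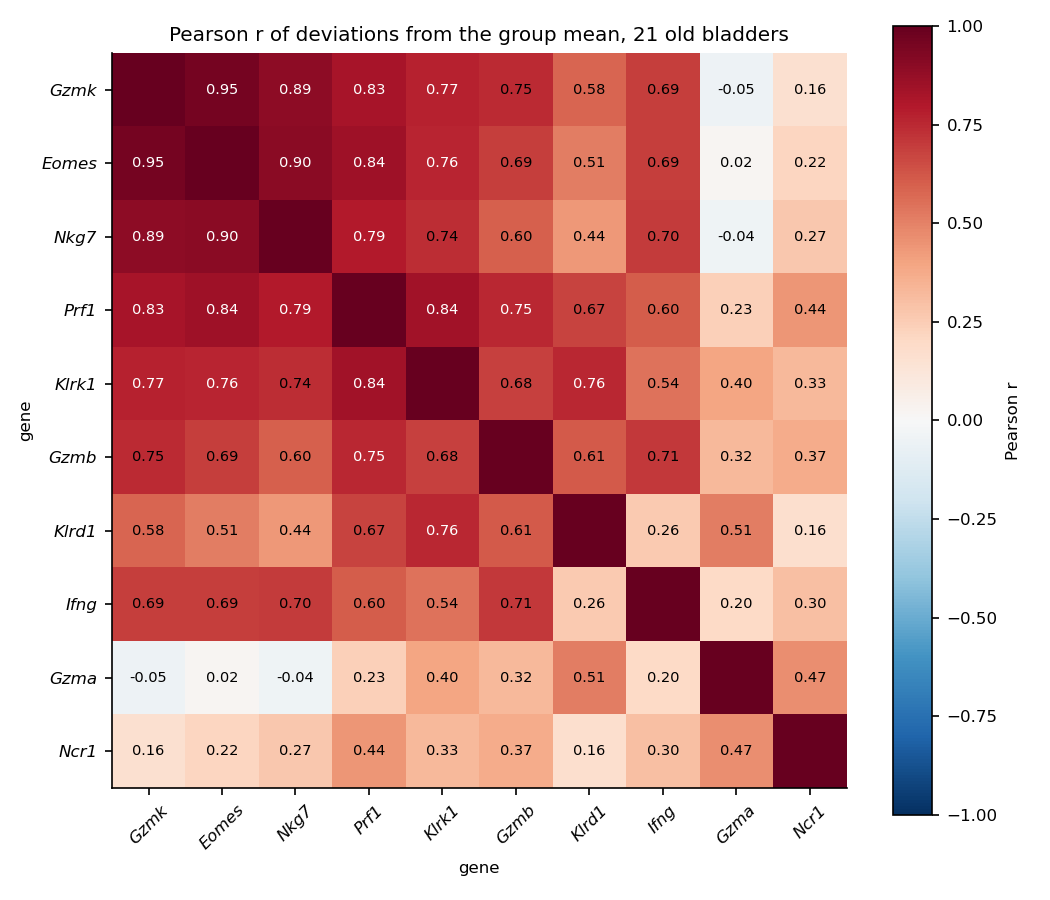
Pearson r between the members (both axes, genes) over the 21 old bladders after each group's mean was removed from log2(CPM + 0.5), with red for positive and blue for negative values and r written in each cell. Gzmk, Eomes, Nkg7 and Prf1 form a block of 0.79 to 0.95, Klrk1 and Gzmb stand at 0.60 to 0.84 with these 4, and the rows of Gzma and Ncr1 are paler, at -0.05 to 0.51.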

How the data were processed

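The authors prepared TruSeq Stranded Total RNA libraries, aligned the reads to mm10 with STAR 2.7.3 and counted them per gene with featureCounts from Subread, and the deposited counts were used as they stood. Whether the counting used the strand is not given in the sources used here. A second deposited table holds log2 values: the authors' counts plus 1, divided by gene length and scaled to 100000 a library, which the counts gave again to within 3.6e-15. Gene positions and lengths came from the deposited count table and overlapping genes from the GENCODE annotation of GRCm38. Of 32285 genes, 32158 had a symbol. The study's methods name edgeR for its comparisons, which set the choice of test.

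The members and gene lists were chosen with earlier results of these data known. Each comparison was fitted on its own groups with edgeR 4.0.16 (R 4.3.3): filterByExpr, TMM factors, the quasi-likelihood test and Benjamini-Hochberg adjustment over all genes tested, with calls at an adjusted p under 0.05. Members outside the filter are reported as not tested. Group and replicate number came from the sample labels. The same replicate number does not mark a shared animal, and deviations of same-numbered bladders correlated from -0.32 to 0.27, so no block was used. DESeq2 1.42.0, limma 3.58.1 on the deposited log2 values, other factors and filters, a fit of all groups and 88 fits with 1 bladder left out were alternatives. On simulated counts, 87.6% of genes changed by 1 on the log2 scale were recovered for untreated old against middle-aged mice (17045 genes) and 85.7% for D+Q-treated against untreated old mice (16928 genes). The changed genes were drawn from genes of all levels, so these shares do not give the recovery of genes as low as the members. Named genes were all members, the 3 largest called changes of each list between middle-aged and untreated old mice and all genes of lists of 5 or fewer. Genes most like a member were ranked over 21 old bladders by Pearson r of log2(CPM + 0.5), for members with at least 320 counts. The smallest library had 15088372 counts, where the floor of 3 counts was 0.199 CPM before TMM.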

Additional observations from a re-analysis of the deposited data

Results flagged for a closer look

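In 60 sets of levels (10 genes in 6 groups), 4 had 1 bladder that stood farther from the rest of its group than Dixon's 95% limit allows, and chance alone gives about 1 such set in 20. Gzmk in untreated old replicate 3 was the highest of its 6 bladders at 12.1 CPM (378 counts). Nkg7 in middle-aged replicate 2 was the highest of 5 at 1.62 CPM (51 counts). In water-treated replicate 1, the highest of 5 bladders for both, Ncr1 was at 0.894 CPM on 17 counts and Ifng at 0.526 CPM on 10 counts.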

How the results depend on the processing

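The calls of Gzmk, Eomes, Nkg7 and Prf1 between middle-aged and untreated old mice held under each alternative in which the gene was tested, with 4 to 5 members called as single bladders were left out. The size moved most with limma on log2(TPM + 1), a scale that shrinks the change of low genes, where the log2 fold change was 2.75 for Gzmk, 1.46 for Eomes and 0.89 for Prf1, and 2.93 for Gzmk and 1.44 for Eomes against young mice. For middle-aged against young mice, the count of members called was 0 in a fit of all 6 groups, 4 with DESeq2, 4 without the young libraries under 20000000 counts (chosen after seeing the data), and 0 to 4 with 1 bladder left out. The other program genes there had 2 calls without the filter on low counts, 1 with at least 10 counts in every bladder, 13 with DESeq2, 15 without the shallow young libraries and 0 to 9 with 1 bladder left out. A block on the replicate number, which does not pair the mice, gave 2 such calls, called Ncr1 (adjusted p = 0.047) but not Prf1 (adjusted p = 0.088), and changed 1811 calls over all genes to 893. Same-numbered bladders were each other's best match in 11 of 40 pairs. For untreated old against young mice, 3 members were called with at least 10 counts in every bladder, where Gzmk and Eomes were not tested. DESeq2 called 2 members and 3 other program genes for D+Q against untreated old mice, and 1 and 3 for water. The number of calls over all genes was less stable: 2858 for middle-aged against young and 2519 for untreated old against middle-aged mice with all 6 groups in 1 fit. For water against untreated old mice it was 99 without a filter, 0 with all 6 groups, limma or the replicate block and 693 with DESeq2. DESeq2 called 189 genes for D+Q and 123 for vehicle against untreated old mice, 13 for D+Q against vehicle and 66 against water. The cause of these differences was not tested.

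Signs turned for some members, and not all of these were near 0, as with Prf1 at -0.29 for D+Q against water. For water against untreated old mice the members whose sign turned were Gzma (-0.012 with at least 10 counts, -0.18 with the replicate block), Klrd1 (-0.076 with the block) and Ncr1 (0.083 with limma). For D+Q against vehicle they were Gzmb (-0.0035 with RLE factors, -0.0099 with at least 10 counts, -0.0061 with DESeq2), Gzma (-0.0050 with limma, -0.15 with the block), Nkg7 (0.14 with limma, 0.079 with the block) and Prf1 (0.053 with the block). For D+Q against water they were Gzmk (-0.046) and Klrk1 (-0.0029), both with limma. With 1 bladder left out, the log2 fold change ran for Eomes from -0.34 to 0.14 (middle-aged against young), for Klrd1 from -0.15 to 0.037 (untreated old against middle-aged) and for Klrk1 from -0.24 to 0.00019 (untreated old against young). Against untreated old, it ran after water from -0.25 to 0.25 for Gzma, -0.19 to 0.17 for Klrd1 and -0.20 to 0.37 for Ncr1, and after vehicle from -0.58 to 0.024 for Klrd1 and -0.47 to 0.29 for Ncr1. For D+Q against vehicle it ran from -0.13 to 0.24 for Gzma, -0.20 to 0.36 for Gzmb, -0.21 to 1.47 for Gzmk, -0.50 to 0.33 for Prf1, -0.52 to 0.38 for Nkg7, -0.12 to 0.84 for Eomes and -0.086 to 0.54 for Klrk1. For D+Q against water it ran from -0.43 to 0.060 for Gzma, -0.047 to 0.26 for Gzmb, -0.26 to 0.23 for Gzmk, -0.46 to 0.011 for Prf1, -0.10 to 0.41 for Nkg7, -0.43 to 0.065 for Eomes and -0.14 to 0.29 for Klrk1. None of these members was called in the comparison named. Counts of 0 to 10 in many bladders limit what can be seen of Ifng, and of Gzmk in young and middle-aged mice.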

Other observations

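Tissue genes of the bladder wall moved by small amounts beside the lymphocyte genes. Of 9 tissue markers, 4 were called lower in the untreated old than in the middle-aged bladders, where 11% of all genes were. The smooth muscle myosin gene Myh11 was at -0.24 (SE 0.07), and the uroplakin genes of the urothelial surface Upk2, Upk3a and Upk1a were at -0.23 (SE 0.06), -0.19 (SE 0.04) and -0.15 (SE 0.04) on the log2 scale. Jchain, the joining chain of secreted antibodies, already differed by middle age, with a mean of 16.0 CPM against 1.35 CPM in the young bladders (log2 fold change 3.48, SE 0.55, edgeR adjusted p = 0.0031). Of 5 mast cell markers tested between young and untreated old bladders, 4 were lower, from -1.21 (Mcpt4, SE 0.30) to -1.53 (Cpa3, SE 0.29), and Kit, which other cells of the bladder also carry, was at 0.0019 (SE 0.24). Of all genes tested in that pair, 12.4% were called lower.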
